A study of Rattus norvegicus with 8 samples.

Results

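The arrays of injured rats were compared with the arrays of uninjured rats, 4 against 4, by whether every injured array lay on the same side of every uninjured array. With the arrays scaled to their medians this held for 4115 of 9898 genes tested (41.6%): all 4 injured arrays lay above all 4 uninjured arrays on 1674 genes (16.9%) and below them on 2441 (24.7%). Each gene was read from the brightest probe with its symbol, and tested if that probe was marked well above background on all 4 arrays of at least 1 side, which leaves 9898 of the 9928 genes with any such probe. Uninjured pools came from Sprague-Dawley rats that had either received no treatment (naïve) or a sham injury. Injured pools came from Sprague-Dawley rats after moderate fluid percussion brain injury, and held either Fluoro-Jade-negative (surviving) or Fluoro-Jade-positive (dying) neurons. Brains were taken 24 hours later, and CA3 neurons were captured by laser from 10 µm sections, about 600 for each injured pool. Each of the 4 groups had 2 arrays, each a pool of neurons from several rats. Capture of a Fluoro-Jade-negative neuron required a Fluoro-Jade-positive neighbour, so the 2 kinds of injured pool can share rats. All 4 injured arrays shared slide 1 and all 4 uninjured arrays slide 2, and the scans and the protocols of feature extraction followed the same split, so injury and slide cannot be told apart and every p-value measures only the spread between these pools.

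Fluid percussion injury damages the hippocampus, and CA3 pyramidal neurons are among the cells it kills. Injured neurons are known to switch on early transcription factors, heat shock proteins and secreted factors, while microglia and astrocytes around them become reactive. RNA in captured tissue is a mixture of the neuron and what lies against it.

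Values below are log2 signals relative to the median of the array, in the order naïve 1, naïve 2, sham 1, sham 2 for the uninjured side and surviving 1, surviving 2, dying 1, dying 2 for the injured side, written as uninjured against injured. A difference is the mean of the injured arrays minus that of the uninjured arrays. By limma, with p-values adjusted over all 24019 probes tested, 1823 of the 9898 genes were higher in the injured pools at an adjusted p under 0.05 (18.4%) and 2534 lower (25.6%). Over all probes, named or not, 4211 (17.5%) were higher and 6526 (27.2%) lower. At the edge of the rule, the smallest gap between the sides was on Cuedc2, where sham 2 and surviving 2, each at 3.27, were 0.00017 apart. The smallest overlap was on Gaa, where naïve 1 and surviving 1 were each at 6.21. The median gap was 0.93 log2 on genes above and 0.54 on genes below.

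The direction of the whole comparison depended on how arrays were scaled. With the array median, the median difference of all genes was -0.43, and 41.8% of the genes past the threshold were higher in the injured pools. That share was 69.9% when arrays were scaled to their 75th percentile (median difference 0.19), 75.9% with the median of probes well above background on all arrays (0.36), 68.4% after quantile normalization (0.21) and 64.1% after a normexp correction with 1 background per array (0.10). It was 38.4% with the median of probes for RefSeq transcripts (-0.47) and 40.2% with the series values of the authors (-0.42). Genes above and below therefore traded places in number, from 1674 above and 2441 below to 2997 and 1237. A planned normexp correction, by which limma called 0 probes, is left out of these scalings: 2 spots on naïve 1 and 3 on dying 1 had local backgrounds above 10000, and without such spots the same correction gave 7043 probes past the threshold. Under the array median and the 6 other scalings alike, the injured arrays lay above on 1212 genes (12.2%) and below on 949 (9.59%). Of these, 1163 and 945 also did under the planned normexp without those spots, and 706 and 164 with them. Gene lists are for this reason described by their relative difference, the median of the list minus the median of all genes, with its range over these scalings.

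**Figure D1:**
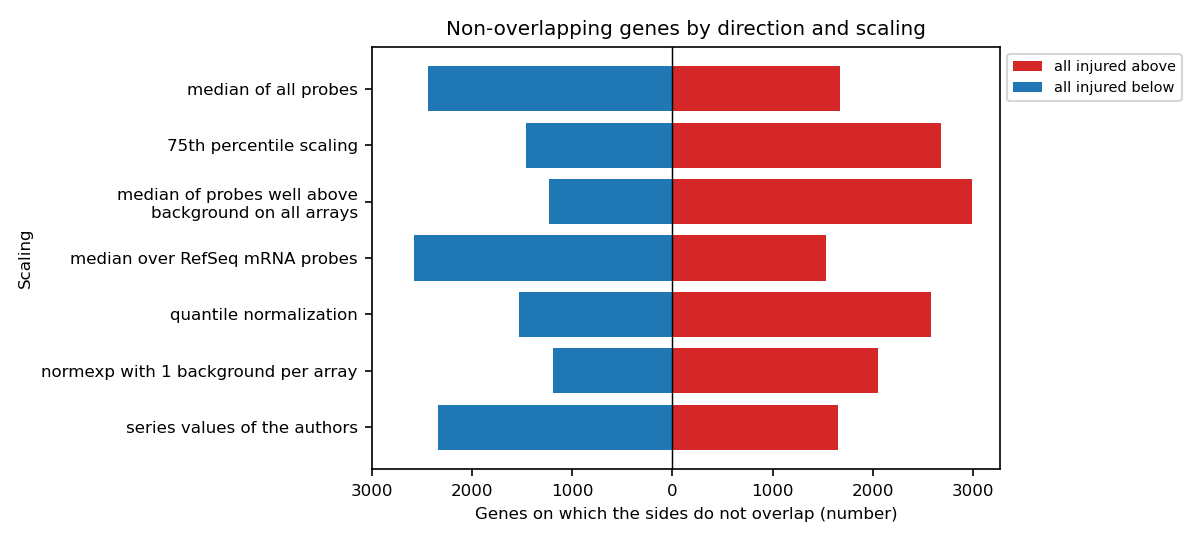
Genes on which all injured arrays lay above (right) or below (left) all uninjured arrays under each scaling.

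Detection differed between the sides before any scaling. The median processed signal was 27.2, 22.7, 16.5 and 16.4 on the uninjured and 52.2, 48.2, 19.2 and 52.6 on the injured arrays, and the share of probes well above background was 54.7, 54.6, 51.0 and 49.2% on the uninjured and 71.6, 66.0, 58.7 and 68.3% on the injured arrays. Dying 1 was the dimmest injured array, its median lying within the uninjured range and its share of detected probes just above it. By the probe read for each gene, 1086 of 9898 passed this mark on all 4 injured and no uninjured array, against 31 with the reverse pattern. Among the 6602 genes detected on all 8 arrays, the injured arrays lay above on 464 (7.03%) and below on 2002 (30.3%). Where the injured arrays lay below, naïve 1 was the uninjured array closest to them on 79.9% of genes, and surviving 1 the closest injured array on 58.1%. A further 1582 genes failed the rule by naïve 1 alone and 910 by surviving 1 alone. Spots marked non-uniform, which were not used, numbered 734, 6, 15 and 8 on the uninjured and 50, 35, 114 and 111 on the injured arrays. Whether spot quality bears on the place of naïve 1 was not tested. Within the sides limma called no probe: 0 of 23993 (0%) between surviving and dying neurons, with 5221 at an unadjusted p under 0.05, and 0 of 24017 (0%) between sham and naïve, with 1102.

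Genes read closely were chosen in part for passing the threshold or not overlapping, so their share past it is no result. Of all 9898 genes tested, 4357 passed. Of the 237 genes read closely, 161 passed the threshold, 105 of them under all 7 scalings and 133 with any 1 array left out. Unless stated otherwise, a gene named below as higher or lower passed under every one of these with the same sign, and its sides did not overlap.

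The leading rises and falls were taken only from genes detected on all 8 arrays, past the threshold and not overlapping. Their separation and adjusted p are therefore set in part by that choice. The largest rises among them were those of Lcn2 and Timp1. Lcn2 read 1.02, 1.95, 3.28 and 2.43 against 7.3, 7.50, 8.88 and 7.39. Dying 1 was its highest array, and the difference was 5.59 (adjusted p 4.7e-05). Timp1 read 3.02, 4.01, 6.93 and 4.81 against 10.14, 8.52, 10.88 and 10.37, with sham 1 nearest to the injured side and surviving 2 the lowest injured array, a difference of 5.28 (adjusted p 0.00056). The neuropeptide galanin (Gal) was even among the uninjured arrays and split among the injured arrays by group: 1.85, 1.81, 2.18 and 1.62 against 5.72, 5.73, 7.65 and 7.62, a difference of 4.82 (adjusted p 8.7e-05).

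The same split, with dying arrays above surviving arrays, ran through most of the next genes. Kcnn4, a calcium-activated potassium channel, read -0.40, 1.53, 1.13 and 1.67 against 4.70, 4.26, 7.81 and 6.23 (difference 4.77, adjusted p 0.00081), and S100a4 read 2.84, 3.93, 4.24 and 3.74 against 7.17, 7.36, 9.85 and 8.65 (difference 4.57, adjusted p 0.00029). Both were chosen among genes whose sides did not overlap. Nestin (Nes) read 3.07, 2.52, 3.98 and 3.89 against 6.46, 6.43, 8.56 and 8.23, a difference of 4.06 (adjusted p 0.00047). The transcription factor Atf3 was near the array median in 3 uninjured arrays and raised in sham 1: 0.50, 0.57, 2.41 and 0.37 against 3.55, 3.87, 6.05 and 5.77, with a difference of 3.85 (adjusted p 0.0013). The small heat shock protein Hspb1 differed in another way, since its injured arrays were close together and its sham arrays lay above its naïve arrays: 2.04, 3.09, 4.75 and 5.11 against 7.79, 7.85, 8.0 and 8.76, a difference of 4.35 (adjusted p 0.00052). Sdc1 (4.27, adjusted p 0.00065), Capg (4.08, 0.00036) and Adamts7 (4.07, 0.00061) were also lowest in surviving neurons on the injured side. Foxe1 was not: dying 1 was its lowest injured array at 3.5, close to naïve 2 at 3.04 (difference 4.21, adjusted p 0.0018). Separate limma contrasts of surviving against dying neurons called none of these genes.

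**Figure D2:**
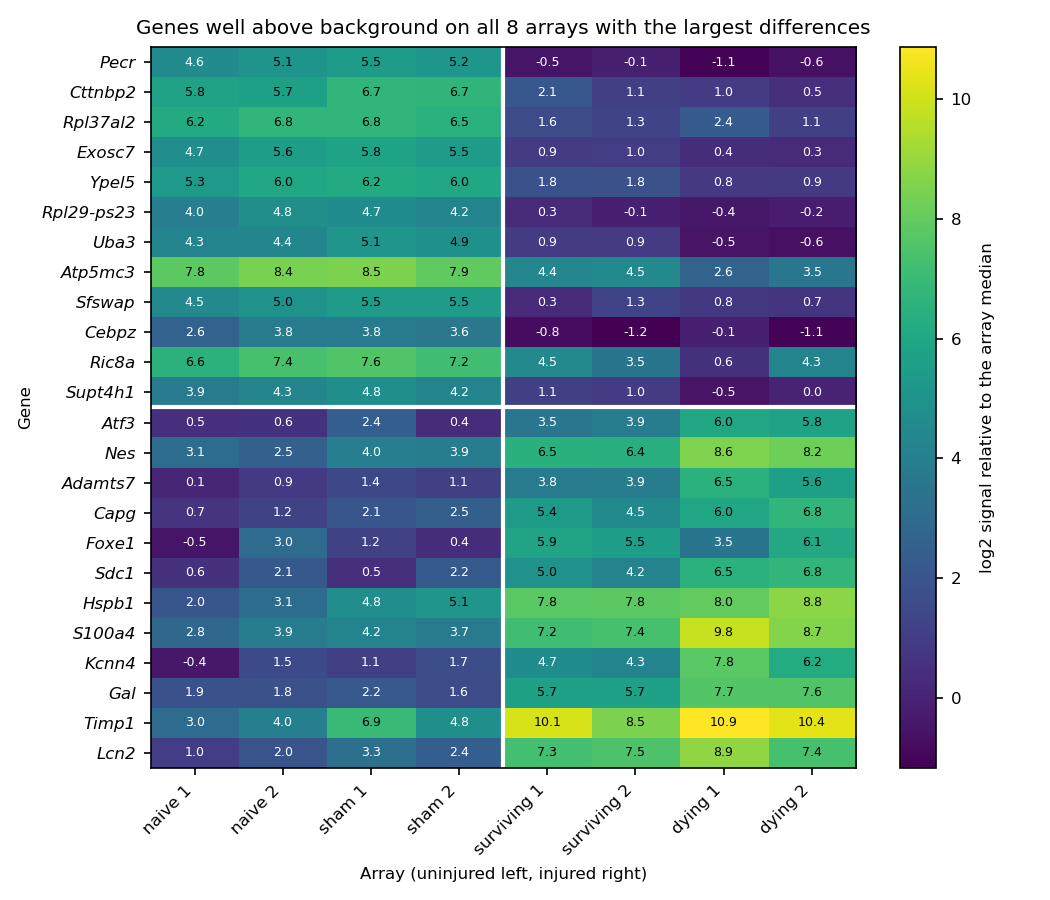
The 12 genes with the largest falls and the 12 with the largest rises among genes detected on all 8 arrays, past the threshold and not overlapping, leaving out loci without a proper symbol.

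The largest fall among these genes was that of Pecr, a peroxisomal reductase, which read 4.62, 5.08, 5.46 and 5.16 against -0.50, -0.10, -1.08 and -0.63, a difference of -5.66 (adjusted p 4.7e-06) with every injured array under its array median. Cttnbp2 read 5.79, 5.68, 6.74 and 6.69 against 2.12, 1.09, 0.98 and 0.50 (difference -5.06, adjusted p 2.8e-05), with surviving 1 the highest injured array. Dying 1 was the highest instead for the ribosomal protein gene Rpl37al2: 6.19, 6.76, 6.77 and 6.50 against 1.63, 1.25, 2.35 and 1.10, a difference of -4.97 (adjusted p 1.2e-05). For Exosc7, a subunit of the RNA exosome, values were 4.71, 5.55, 5.84 and 5.50 against 0.89, 1.01, 0.40 and 0.27, and the difference was -4.75 (adjusted p 1.5e-05).

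The NEDD8-activating enzyme subunit Uba3 read 4.28, 4.37, 5.13 and 4.89 against 0.93, 0.93, -0.53 and -0.62, with dying arrays under surviving arrays (difference -4.49, adjusted p 7.6e-05). Atp5mc3, a subunit of ATP synthase, was bright on the uninjured side and read 7.85, 8.43, 8.52 and 7.95 against 4.42, 4.50, 2.64 and 3.55, a difference of -4.41 (adjusted p 7.7e-05). Supt4h1 (difference -3.91, adjusted p 0.00012) and Ypel5 (-4.57, 2.5e-05) were also lowest in dying neurons, while Cebpz (-4.23, 4.9e-05) and Rpl29-ps23 (-4.52, 1.2e-05) were low in all injured arrays alike. Ric8a and Sfswap need care, since another probe of each gene was called in the opposite direction. The brightest probe of Ric8a read 6.56, 7.39, 7.59 and 7.19 against 4.51, 3.53, 0.57 and 4.27, where dying 1 alone lay near the array median (difference -3.96, adjusted p 0.0021), and that of Sfswap differed by -4.37 (adjusted p 2.7e-05). Ahead of the last of these 12 genes stood 12 more loci with provisional symbols, which were counted and not named.

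Genes detected on a whole side and on no array of the other are given as a bound. The mean of the detected side was set against a value for each array of the other. That value was the lowest signal marked well above background on the array, or the probe's own signal where this was larger. These bounds hold for the array median: over the scalings the difference of Hk3 ran from 3.27 to 7.27 and that of Rchy1 from -6.92 to -3.11. No p-value is given for such genes, nor for those detected on only some arrays of a side (Spp1, Egr3, Fosl1, Vegfa, Srxn1, Syngr1, Hsph1, Gria4, Ntf3, Cat and Rps26), since they entered the test only through the side on which they were high and their differences include values at background. On the injured side only, Hk3, a hexokinase of myeloid cells, was at least 21.7-fold higher, its surviving pools reading 2.30 and 2.72 and its dying pools 5.66 and 5.04. The complement receptor C5ar1 (at least 10.5-fold) and the myosin Myo1g (at least 10.8-fold) had the same order, and C18h5orf46 (at least 12.2-fold) was highest in dying 1. Cdk1, a kinase of dividing cells, was even over the injured arrays, at 2.32, 2.71, 3.1 and 3.02 (at least 9.82-fold). In the reverse direction the ubiquitin ligase Rchy1 was at least 70.2-fold lower, with uninjured values of 3.73, 3.88, 4.91 and 4.67. Hint3 (at least 40.0-fold), the antiproliferative gene Tob1 (at least 32.2-fold), Elmo1 (at least 18.7-fold) and Crybb2 (at least 16.2-fold) likewise went from detected on all uninjured arrays to detected on none.

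Promoters were searched for motifs that these genes might share. RefSeq promoters in GRCr8, from 250 bases before to 50 after the start, were matched by symbol for 12 of the 17 higher and 15 of the 17 lower genes above. On either strand, the AP-1 pattern TGANTCA, the CRE motif TGACGTCA and the STAT pattern TTCNNNGAA, with N as any base, were found in 0 of the 12 and 0 of the 15, against 7.33%, 1.83% and 8.87% of all 33469 promoters. So few promoters would hold few matches at these shares, so 0 is not read as a difference. Atf3, C5ar1, Capg, Foxe1 and Kcnn4 among the higher genes and Rpl29-ps23 and Rpl37al2 among the lower were not matched. No other motif was searched for.

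Counts of the 18 functional lists and of the marker lists below stand beside 18.4% of all genes higher and 25.6% lower under the array median. List counts move with the scaling, as do those of all genes, 1678 to 3201 of 9898 higher and 1015 to 2738 lower. They also move with detection, since a gene could be tested through 1 side alone: of the 6602 genes detected on all 8 arrays, 398 were higher and 2003 lower. Lists and their members were chosen with earlier results of these data known, so the order of the lists is only a description. The list of cytokines, chemokines and innate signalling, which holds Lcn2 and Timp1, had the largest relative difference, 2.76, from 1.24 to 2.76 over the scalings. Of its 24 genes tested 13 were higher, 13 to 18 over the scalings, and 1 lower, but only 12 of the 24 were detected on all 8 arrays, and of these 5 were higher and 1 lower, with a relative difference of 1.44 against all genes so detected. Besides Lcn2 and Timp1, osteopontin (Spp1) read -2.10, -1.03, -2.39 and 0.66 against 5.21, 2.43, 4.69 and 5.99 (difference 5.79), detected on only 1 uninjured array. Galectin 3 (Lgals3) read 1.32, 1.59, 2.76 and 4.02 against 7.26, 7.20 and 8.83, with dying 2 not used because its spot was not uniform, so that it is not counted by the rule (difference 5.34, adjusted p 0.0004). Interleukin 1β (Il1b) was detected on injured arrays only, where surviving pools read 1.13 and 0.19 and dying pools 2.55 and 3.14, at least 4.79-fold higher. The list's only lower gene was Cxcl12: 6.54, 7.07, 7.47 and 6.80 against 4.38, 4.17, 5.25 and 3.55, a difference of -2.63 (adjusted p 0.00095), with the sides apart. In bulk pools such as these, more cells of a type and more RNA per cell cannot be told apart, nor can fewer cells and less RNA.

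**Figure D3:**
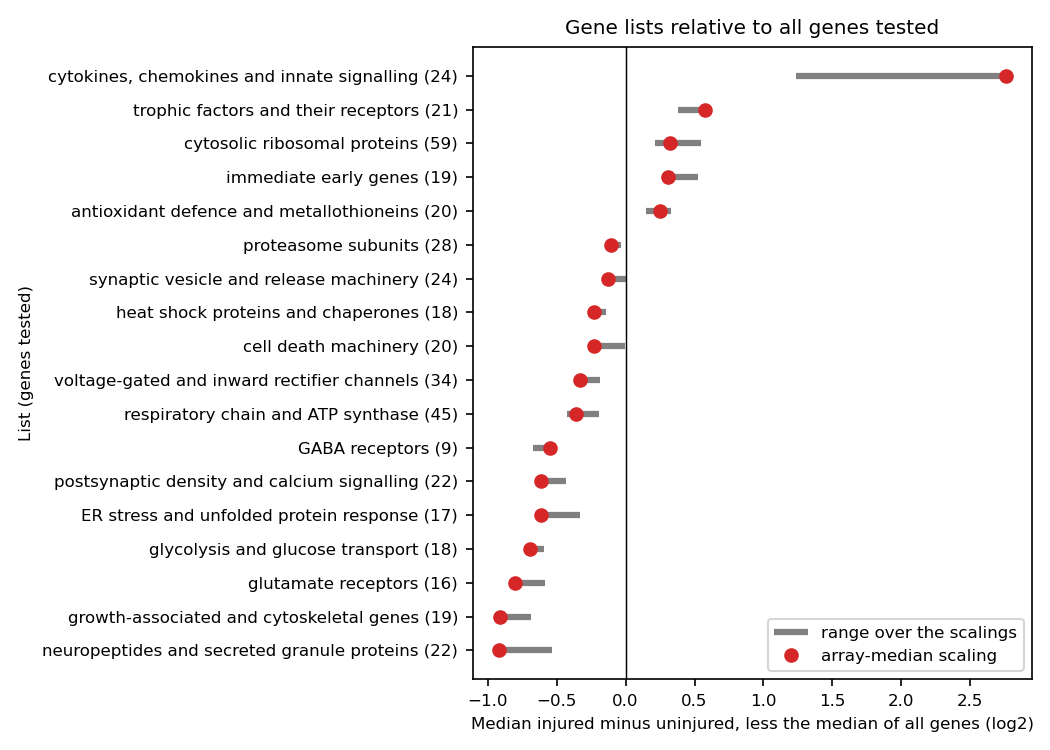
Median difference of each functional list minus that of all genes, with the range over the scalings.

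The list of trophic factors and their receptors had 5 higher and 3 lower of 21, 5 to 7 and 2 to 3 over the scalings (relative difference 0.58, 0.38 to 0.58). Of the 16 detected on all 8 arrays 2 were higher and 2 lower. Gdnf read 0.98, -0.04, 0.49 and 0.18 against 2.51, 2.67, 2.42 and 2.52, a tight rise of 2.13 (adjusted p 0.001). Tgfb1 was detected on injured arrays only (at least 3.62-fold), and Vegfa was higher with surviving 1 at 0.73 and the other injured arrays at 3.23, 2.38 and 2.60 (difference 2.47). Bdnf fell: 2.24, 2.47, 3.02 and 2.92 against 0.71, 0.41, -1.08 and -1.03, with dying neurons lowest and no overlap between the sides, a difference of -2.91 (adjusted p 0.0011). Ntf3 was lower too (-3.01), a difference that includes values at background and is not compared with that of Bdnf. The receptors Ntrk2 (-0.14, adjusted p 0.81) and Ntrk3 (-0.82, 0.21) did not pass the threshold.

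Of 19 immediate early genes 5 were higher and 2 lower, 5 to 8 and 1 to 2 over the scalings (relative difference 0.31, 0.30 to 0.52), and of the 15 detected on all 8 arrays 2 and 2. Fosb read 0.66, 0.98, 1.73 and 1.36 against 3.44, 3.47, 3.01 and 3.58, even among the injured arrays (difference 2.19, adjusted p 0.0011), and Fosl2 was detected on injured arrays only (at least 3.49-fold). Fosl1 was higher by its mean (3.56), but its sides overlapped, since sham 1 at 2.77 lay above surviving 2 at 2.06. Egr1, bright everywhere, went down: 7.12, 8.04, 8.10 and 8.20 against 6.53, 6.15, 5.60 and 5.78, naïve 1 lying closest to the injured side (difference -1.85, adjusted p 0.0036). Its relative Egr3 was higher (2.13) at levels near background, detected on 1 uninjured array. Jun did not pass the threshold (-0.12, adjusted p 0.81).

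Hspb1 was the only chaperone called higher under the array median. Hspa8 read 10.99, 11.27, 11.70 and 11.44 against 9.51, 9.62, 8.44 and 9.1, a difference of -2.18 (adjusted p 0.0014), with the dying arrays lowest. Hsph1 was lower by 3.6 on the log2 scale and was uneven among injured arrays, from -1.91 in dying 1 to 2.30 in surviving 1. The list of 18 chaperones had 1 higher and 6 lower genes under the array median, 1 to 3 and 2 to 6 over the scalings, and a relative difference of -0.23 (-0.23 to -0.15), or 0.02 for those detected on all 8 arrays. Hsp90aa1 (0.20, adjusted p 0.86), Hsp90ab1 (1.02, 0.25) and Hspa1a (-0.66, 0.30) did not pass, although 2 of the 4 probes tested for Hsp90aa1 and 1 of the 2 for Hsp90ab1 were called lower. Genes of ER stress lay lower still: 0 of 17 were higher and 8 lower, 0 to 1 and 3 to 9 over the scalings, with a relative difference of -0.61 (-0.62 to -0.33). Hspa5, their brightest member, read 9.46, 9.81, 10.48 and 10.22 against 8.59, 8.62, 8.44 and 8.18 (difference -1.54, adjusted p 0.006), and the kinase Ern1 (-2.45, adjusted p 0.0017) and the co-chaperone Dnajb9 (-2.43, 0.00097) fell further. Atf4 did not pass (-0.33, adjusted p 0.53).

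More receptors for glutamate were lower than higher. Of 16 genes tested 7 were lower and 1 higher, 4 to 7 and 1 to 2 over the scalings, with a relative difference of -0.80 (-0.81 to -0.58). The AMPA receptor subunit Gria2 read 7.03, 7.03, 8.26 and 7.74 against 4.78, 4.29, 2.47 and 3.16, where surviving arrays lay between the uninjured and the dying arrays (difference -3.84, adjusted p 0.00044). Grik2 (-2.48, adjusted p 0.0018) and Gria4 (-3.09) were lower too. The list's higher gene was Grik3, detected on injured arrays only (at least 1.81-fold). The brightest probe of Grin1 did not pass (0.33, adjusted p 0.49), while another of its probes was called in the opposite direction. For GABA receptors 3 of 9 genes were lower under the array median and between 0 and 3 under the scalings, so none is described.

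Ion channels split by family member. Sodium channel Scn2a read 8.0, 8.17, 9.01 and 8.71 against 7.15, 6.89, 5.78 and 5.95 and fell by 2.03 on the log2 scale (adjusted p 0.0038), dying neurons again lowest. Scn1a (-2.49, adjusted p 0.00053), the L-type calcium channel Cacna1c (-2.54, 0.0021) and Kcna4 (-1.86, 0.0033) fell as well. The T-type channel Cacna1h rose, at -0.18, 0.99, 0.94 and 0.56 against 2.40, 2.18, 2.73 and 2.25, a difference of 1.81 (adjusted p 0.0035) with the injured arrays close together, and Kcna6 was detected on the injured side only (at least 2.94-fold). In all, 2 of 34 channels were higher and 12 lower, but 2 to 8 higher and 5 to 12 lower over the scalings, and the relative difference was -0.33 (-0.33 to -0.18).

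Genes of transmitter release sat near the middle of all genes, and their direction was not stable. Of 24 genes 3 were higher and 6 lower, 2 to 5 and 2 to 7 over the scalings, and of the 17 detected on all 8 arrays 0 and 5. The relative difference of the list was -0.13 and turned positive under 1 scaling (-0.13 to 0.01). Snap25 nevertheless fell, at 9.97, 10.35, 10.99 and 10.49 against 8.89, 7.25, 6.20 and 7.63, the 2 sides clear of each other (difference -2.96, adjusted p 0.0017). Vamp2 read 8.08, 8.52, 8.92 and 8.80 against 6.33, 6.32, 6.32 and 6.12, with hardly any spread among the injured arrays (difference -2.31, adjusted p 0.00055), and Syngr1 was higher (2.43). The postsynaptic list lay lower (1 higher and 9 lower of 22, the latter 4 to 12 over the scalings, relative difference -0.61, -0.64 to -0.43). In it Shank2 (-2.55, adjusted p 0.00052), Shank1 (-1.96, 0.0012) and Nlgn1 (-3.49, 0.0051) were lower, and Nlgn3 was higher (1.64, 0.0033).

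Neuropeptides and granule proteins had the lowest list median under the array median, at a relative difference of -0.92 (-0.92 to -0.53), although Gal was among the largest rises. Chromogranin A (Chga) read 6.90, 7.07, 7.26 and 7.39 against 5.15, 4.92, 4.77 and 4.65, a difference of -2.28 (adjusted p 0.00048) with every injured array lower by a similar amount. Nptx1 was uneven, with dying 1 at 1.38 and surviving 1 at 5.85 (difference -3.75, adjusted p 0.0037), and the processing enzyme Pcsk1 was lower (-2.57, 0.004). Growth-associated and cytoskeletal genes lay nearly as low (2 higher and 9 lower of 19, relative difference -0.91, -0.92 to -0.69), yet the number lower ranged from 1 to 10 over the scalings. Marcksl1 was higher under each, at 0.10, -0.24, 0.56 and 0.15 against 0.97, 1.69, 3.35 and 2.15, dying 1 being highest (difference 1.90, adjusted p 0.01).

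None of 18 genes of glycolysis and glucose transport was higher under the array median and 7 were lower, with 1 to 9 lower over the scalings (relative difference -0.69, -0.74 to -0.59). Only Pfkp of the genes read closely held under each scaling: 8.29, 8.96, 9.50 and 9.20 against 7.62, 7.37, 6.03 and 5.87, lowest in dying neurons (difference -2.26, adjusted p 0.0042). Gapdh did not pass (-0.72, adjusted p 0.13). In the respiratory chain and ATP synthase 16 of 45 were lower and 0 higher, but 4 to 18 lower and 0 to 4 higher over the scalings, and the relative difference was -0.36 (-0.43 to -0.19). Besides Atp5mc3, Ndufs4 read 3.85, 4.45, 4.44 and 3.82 against 1.68, 1.91, 0.40 and 0.89 (difference -2.92, adjusted p 0.00049), with no overlap and dying arrays lowest, and Cox5a (-1.82, 0.0038) and Sdhc (-1.73, 0.0038) were lower. Cox6a1, among the brightest of the chain, did not pass under the array median (-0.07, adjusted p 0.88).

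Cytosolic ribosomal protein genes showed how far scaling moves the counts of a list. Of 59 tested, 1 was higher and 6 lower under the array median, but the number higher ranged from 1 to 27 over the scalings, and the relative difference was 0.32 (0.22 to 0.54). Members departed from this in opposite directions under each scaling. Rpl34 read 8.52, 8.97, 9.18 and 9.0 against 5.69, 6.16, 5.90 and 5.78, with a tight injured side (difference -3.04, adjusted p 9.9e-05), Rps7 fell alike (-3.20, 0.0002), and Rps26 was lower by 6.42, under the array median. Rpl36 rose: 8.25, 9.27, 9.0 and 8.87 against 10.32, 10.08, 12.59 and 10.83, dying 1 highest (difference 2.11, adjusted p 0.0099). Proteasome subunits lay near all genes (relative difference -0.11, -0.12 to -0.03, or 0.21 for those detected on all 8 arrays). Of 28, 0 were higher and 7 lower, and over the scalings 0 to 7 higher and 2 to 8 lower, with Psma2 (-2.37, adjusted p 0.0014) and Psmc6 (-2.03, 0.0015) lower.

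Counts of cell death genes moved with the scaling, as did those of all genes. Of 20, 1 was higher and 7 lower under the array median, 0 to 4 higher and 1 to 7 lower over the scalings, with a relative difference of -0.23 (-0.23 to -0.01). Cytochrome c (Cycs) read 9.98, 10.06, 10.79 and 10.27 against 8.55, 8.54, 7.10 and 7.54, lowest in dying neurons (difference -2.34, adjusted p 0.0018). Bad did not pass (-0.23, adjusted p 0.61). Of 20 antioxidant genes 2 were higher and 3 lower, 2 to 7 and 2 to 3 over the scalings (relative difference 0.25, 0.14 to 0.33), and of the 14 detected on all 8 arrays 0 and 2. Metallothionein 1 (Mt1) read 5.39, 6.67, 6.39 and 5.79 against 8.78, 7.74 and 8.39, with dying 1 not used because its spot was not uniform, which likewise leaves it out of the rule (difference 2.24, adjusted p 0.0038), and Srxn1 was higher (1.84). Catalase (Cat), at levels near background (-2.74), and Prdx3 (-2.06, adjusted p 0.002) were lower.

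Relative differences shifted when lists were restricted to genes detected on all 8 arrays and set against all genes so detected. They shrank to 0.003 for cell death, -0.08 for channels, -0.12 for the respiratory chain and -0.13 for GABA receptors. For the lists that lay lowest they were -0.59 for neuropeptides, -0.59 for growth-associated genes, -0.52 for glutamate receptors, -0.44 for glycolysis, -0.40 for the postsynaptic list and -0.39 for ER stress. On the other side stood ribosomal proteins (0.63), antioxidant genes (0.48), trophic factors (0.42) and immediate early genes (0.23), with transmitter release at -0.14.

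Marker lists of cell types are given by their summed signal, which is not compared between lists, since probes differ in brightness, and which between the sides holds only for the array median, since other scalings would shift it. Of 12 pyramidal neuron markers, 9 to 11 were well above background on each array, and their sum, in multiples of the array median, was 6161, 9091, 11812 and 10302 against 7027, 6749.5, 3314 and 3907, most of it from Nrgn. Only 1 of the 10 tested, Snap25, passed the threshold. Nrgn read 12.18, 12.70, 13.07 and 12.92 against 12.37, 12.43, 11.53 and 11.51 and did not pass (-0.76, adjusted p 0.13). Interneuron markers summed to 425, 565, 512 and 538 against 197, 184, 775 and 196, where dying 1 lay highest and the other injured arrays lowest. Pvalb was the brightest member by mean log2, but Sst was above it on dying 1. Dentate granule or CA1 markers summed to 38.1, 48.0, 25.7 and 44.6 against 7.81, 13.0, 26.6 and 7.82.

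Markers of microglia and macrophages were highest on the dying arrays. Their summed signal was 256, 498, 481 and 437 against 498, 550, 2639.8 and 1335, with the dying arrays highest. C1qb was the brightest member on both dying arrays. Of 11 tested 6 were higher, 5 to 8 over the scalings, and 0 lower, beside 18.4% and 25.6% of all genes (relative difference 2.11, 1.56 to 2.17). Of the 9 detected on all 8 arrays 5 were higher, beside 398 of all 6602 so detected. C1qa (1.17, adjusted p 0.098), Laptm5 (0.25, 0.69), Csf1r (-0.09, 0.88), Aif1 (-0.66, 0.27) and Ctss (-0.89, 0.23) did not pass. Cd68 read 0.97, 1.61, 2.52 and 2.52 against 4.58, 4.05, 6.77 and 5.48, with the sides apart (difference 3.32, adjusted p 0.0017), and Tyrobp 3.85, 4.33, 4.38 and 4.56 against 5.94, 5.67, 8.75 and 7.41 (difference 2.66, adjusted p 0.006). C1qb (2.19, 0.023), C1qc (1.68, 0.024) and Trem2 (2.0, 0.04) passed too, but lost the call with naïve 1 or with dying 2 left out, and on Trem2 the sides overlapped. Leukocyte markers summed to 16.5, 21.4, 19.0 and 15.8 against 43.9, 40.5, 72.9 and 72.7. Lyz2 read 2.68, 3.6, 2.92 and 2.78 against 4.81, 4.63, 4.60 and 5.13 (difference 1.80, adjusted p 0.0026), and Cd3d was higher (1.72, 0.0075). The red cell markers Hbb and Alas2 summed to 9.36, 4.76, 8.89 and 8.80 against 19.1, 9.54, 29.2 and 31.9. The part of such cells in the rises of Lcn2, Timp1, Spp1, Hk3, C5ar1 and the other genes above was not tested.

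**Figure D4:**
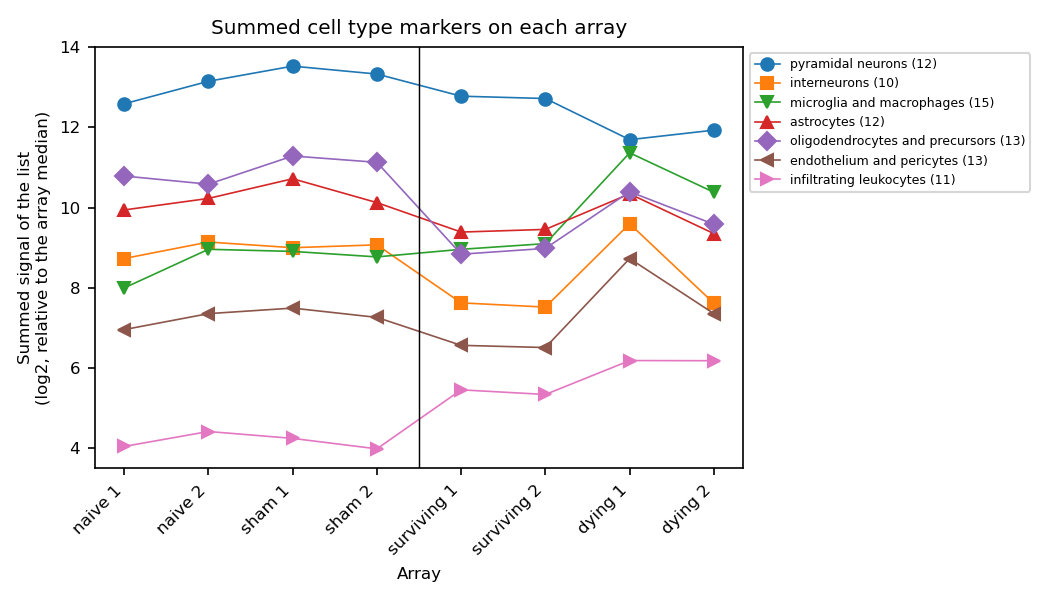
Summed signal of each cell type marker list on each array, lists of more than 2 genes tested.

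Other glial markers were lower or mixed. Oligodendrocyte and precursor markers summed to 1768, 1536, 2499 and 2241 against 458, 506, 1348 and 768. Of 11 tested 5 were lower under the array median, 1 to 5 over the scalings, and 0 higher, beside 25.6% and 18.4% of all genes. Of the 10 detected on all 8 arrays 5 were lower, beside 2003 of all 6602 so detected. On Mog the sides overlapped, dying 1 at 7.08 against 6.97 in naïve 1. Astrocyte markers summed to 984, 1200.5, 1687 and 1117 against 671, 703, 1299.5 and 653, led by Slc1a3, with a relative difference of -0.02 (-0.10 to -0.01). Gja1 fell, at 6.47, 6.62, 7.21 and 6.40 against 3.44, 3.72, 5.11 and 3.29 (difference -2.79, adjusted p 0.00096), and Fgfr3 was detected on injured arrays only (at least 3.81-fold). Endothelial and pericyte markers summed to 124, 164, 180 and 154 against 94.8, 91.3, 425 and 164, highest in dying 1, with Kdr brightest by mean log2 and Pdgfrb brightest on that array. Of 10 tested 2 were higher and 3 lower, 1 to 3 and 0 to 3 over the scalings, beside 18.4% and 25.6% of all genes. Among the 7 detected on all 8 arrays, 0 were higher and 2 lower. How these markers bear on the falls of neuronal genes was not tested.

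The difference also varied with the kind of sequence that a probe came from. Probes from 5′ reads of expressed sequence tags had a median difference of -1.16 over 1646 tested, with the injured arrays below on 46.8% and above on 8.51%. Probes from 3′ reads had 0.23 over 4236, below on 10.2% and above on 18.2%, and probes for RefSeq transcripts -0.47 over 14632. The median over all 5′ probes of an array was 1.02, 1.44, 1.63 and 1.46 on the uninjured and 0.59, 0.51, 0.38 and 0.52 on the injured arrays, without overlap, and that over 3′ probes -0.65, -0.22, -0.61 and -0.71 on the uninjured and -0.85, -0.87, 0.32 and -0.24 on the injured arrays, with overlap. The labels name 2 kits for amplifying the RNA and do not say which array had which. Of 1745 genes with several tested probes, 1129 had a probe on which the sides did not overlap, and on 75 of them probes lay on opposite sides. With 1 probe read for each gene, the sides did not overlap on 41.6% of all 9898. Several probes give a gene more chances to count, so these shares are not compared. All probes of a gene lay above on 63 and below on 248 of the 1745. Positions of probes within transcripts were not measured, and the part of probe source or position in the falls was not tested.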

How the data were processed

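The 8 arrays were read from the files of single arrays. Per the file headers, the authors obtained the processed intensity of a spot from Agilent Feature Extraction 9.1.3.1, which subtracted background and removed trends within the array, with no normalization between arrays. Spot mean and local background intensities were deposited uncorrected, beside marks for spots that were well above background, non-uniform or saturated. The series table, as deposited by the authors, holds a signal that equals the processed signal divided by 1 constant for each array.

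Control probes and spots marked non-uniform were not used. Replicate spots were averaged to 41012 probes, the median of these was divided out of every array, and log2 was taken above a floor of 0.01. A symbol was given to 19714 probes (9597 through their accession, 5572 through a current symbol, 3570 through a synonym and 975 as named in the file), 15366 symbols in all. Probes well above background on all 4 arrays of at least 1 side were tested (24019, of which 11968 had a symbol), 637 of them with at least 1 array missing. The sides were tested by a linear model in limma 3.58.1 (R 4.3.3), with Benjamini-Hochberg adjustment over all tested probes and a threshold of 0.05. Tables were made with Python 3.11.15, pandas 2.3.3 and numpy 2.4.6, and the fit was tested on simulated data. The smallest p that an exact permutation of 4 against 4 can give is 0.0286, so it was not used for single genes.

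Named genes were the 12 with the largest difference in each direction among genes detected on all 8 arrays, past the threshold and not overlapping, the 5 in each direction with the largest bound among genes detected on 1 side only (loci with provisional symbols left out), and, in each of 18 functional and 9 marker lists, up to 6 past the threshold or not overlapping and the 3 brightest others. Cuedc2 and Gaa were named only as the edges of the rule. The members and lists were chosen with earlier results of these data known. Precision is limited by 2 arrays for each group. Alternatives covered the model, the scaling, the background correction and filter, the probes used and the arrays included.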

Additional observations from a re-analysis of the deposited data

Results flagged for a closer look

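Among the 4 arrays of a side, 27 of 464 tests on the genes read closely found an array far from the other 3, by the ratio of its gap to the range of the side, which is 5.82%, and chance flags about 1 in 20. Values here are signals in multiples of the array median. Dying 1 accounted for 12 of them. It lay above the other injured arrays on Lcn2 (471), C18h5orf46 (27.3), Mt3 (8501), Shank1 (10.2), the glial or vascular genes Slc1a3 (942), Mog (135) and Pdgfrb (134), and the ribosomal protein genes Rpl8 (13399), Rps16 (13149) and Rplp1 (10874), and below them on Hsp90ab1 (202) and Grik2 (0.718). Naïve 1 accounted for 8, all below the other uninjured arrays: Egr1 (139), Hsph1 (11), Syngr1 (0.606), Sv2b (8.59), Ntrk3 (61.8), Rbfox3 (283), Gad1 (0.689) and Laptm5 (63.6). The others were dying 2, below on Cacnb3 (389), Vamp2 (69.7) and Syt5 (788), sham 1, above on Atf3 (5.3) and Fosl1 (6.83) and below on Calb1 (19.2), and naïve 2, above on Trem2 (61.4).

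Control probes, which took no part in the comparison, also separated the slides. The processed signal of the control AT_ssR_RR_5 was 109, 998, 92.1 and 501 on the uninjured and 310000, 290000, 8610 and 331000 on the injured arrays, a difference of 8.89 log2. That of the control E1A_r60_1 was 393, 62.1, 164 and 61.4 on the uninjured and 13.5, 15.6, 11.1 and 15.5 on the injured arrays. What these controls bind is not described in the files, and their part in the differences between the sides was not tested.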

How the results depend on the processing

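Against 10737 probes past the threshold (4211 higher, 6526 lower) and 4115 genes without overlap (1674 above, 2441 below), scaling moved the directions more than the totals: the 75th percentile gave 6450 probes higher and 3480 lower, with 2688 genes above and 1466 below. The median of probes well above background on all arrays gave 7289 and 2986 probes, with 2997 and 1237 genes. Quantile normalization gave 3540 probes lower, with 2585 genes above and 1536 below. With normexp limma called 0 probes, 0 higher and 0 lower (3879 at an unadjusted p under 0.05), and 1049 genes did not overlap (832 above, 217 below). Without the 2 spots on naïve 1 and 3 on dying 1 whose local background was above 10000, an alternative added after seeing the data, it called 7043 probes (3245 lower), with 1240 genes below, so these spots set its result. A normexp added likewise with 1 background per array gave 7135 probes, 3219 of them lower, and 1195 genes below. Fewer probes tested gave fewer calls: detection on all 8 arrays left 5868 (870 higher) and 2466 genes (464 above), probes with a symbol 5362 (2174 higher, 3188 lower) and RefSeq probes 6797 (2675 and 4122). No filter on background gave 10321 probes lower and 3674 genes below. With fewer arrays, naïve alone as uninjured gave 4972 probes (2075 lower), sham alone 6299 genes without overlap (4202 below) and dying neurons alone 3769 below. A replicate block gave 10130 probes. Leaving out 1 array at a time moved no count by more than 1.5 times. Of the genes read closely, Hspa4 (0.23) and Map1b (0.26) changed sign when the probes of a gene were averaged, and Cox6a1 passed as higher with the median of probes well above background on all arrays (0.71) and with the added normexps (0.76 and 0.78). Apart from the smaller sets and the spots of high background, the cause of these moves was not tested.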

Other observations

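Slide, scan and feature extraction protocol all coincide with injury, so no value here separates them. Each side holds 4 pools of 2 kinds, and surviving and dying neurons were taken side by side, so the p-values describe the spread of these pools and not of rats. The counts of the lists move with the scaling and their relative differences with detection, and only relative differences and genes that held under every scaling are described as higher or lower without that caveat. Signals near background limit low genes, most of all on the dimmer uninjured arrays. The capture areas, the amplification kit of each array and RNA quality were not used here.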
